A study of Arabidopsis thaliana with 30 samples.

Results

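The calcium that enters a plant cell is cleared by transporters that include the CAX and ACA families. From these 2 families 10 genes, CAX1 to CAX4, ACA1, ACA2, ACA4, ACA8, ACA10 and ACA11, are described here out of 24721 genes listed in any of the 9 deposited tables. They were chosen by gene identifier, and all 10 are listed in all 9 tables. CAX proteins are exchangers of the vacuolar membrane (the tonoplast) that use the proton gradient made by the vacuolar proton pumps to load calcium into the vacuole. ACA proteins are calcium pumps driven by ATP, held inactive by their own N-terminal region until calmodulin binds it. CAX1 (AT2G38170) and CAX3 (AT3G51860) are tonoplast exchangers for calcium, CAX2 (AT3G13320) also carries manganese, and CAX4 (AT5G01490) is a tonoplast exchanger best known from roots. ACA2 (AT4G37640) is a pump of the endoplasmic reticulum, and ACA1 (AT1G27770) has been placed in the endoplasmic reticulum and in the plastid envelope. ACA4 (AT2G41560) and ACA11 (AT3G57330) pump calcium into vacuoles, and ACA8 (AT5G57110) and ACA10 (AT4G29900) pump it out through the plasma membrane. The comparisons ask whether these other exits for calcium change at the transcript level when the mitochondrial calcium uniporter (MCU) genes are overexpressed or knocked down.

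RNA was sequenced from whole Arabidopsis thaliana seedlings, 10 d old, of 5 genotypes, with 3 libraries in each of 10 groups. 2OX, 4OX and 6OX overexpress MCU2, MCU4 and MCU6 as fusions to YFP from the 35S promoter, each as a chosen line, sextuple combines insertion or edited alleles of 6 MCU genes and keeps part of their transcripts, and Col is the wild type. Each genotype was treated with 50 µM antimycin A (AA), an inhibitor of respiratory complex III, for 5 h by the sample labels, or with DMSO (CK). The study calls the libraries biological replicates, but the labels name no separate cultures, so p-values measure the spread between these 3 libraries a group, which may be technical.

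The tables' headings conflict, and this decides how each value below is named. All 15 columns headed AA in the 5 tables of AA against CK hold the same reads, gene by gene, as columns headed CK in the 4 tables of a line against Col. These 15 libraries are called the first set, and the other 15, which stand only in the AA tables and are headed CK there, the second set. A line against Col was compared within a set, where both headings give the same genotypes. AA against CK is given as the AA tables head their columns; read by the line tables instead, every sign would turn round. AOX1A, the alternative oxidase gene known to rise with antimycin A, goes against the AA-table headings: it was called lower in the columns headed AA in all 5 genotypes, with log2 fold changes of -1.83 in 2OX to -0.97 in Col. AOX1D, a second alternative oxidase gene, was also called lower in the columns headed AA in all 5 genotypes. No library was relabelled.

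Depth was 2.56 to 39.07 M reads, and the shallowest library, replicate 1 of 2OX in the first set, had 2.56 M, against 11.84 M in the next. The Col libraries of the second set stand apart: ribosomal RNA took 1.47 to 6.24% of their reads and depth was 11.84 to 21.49 M reads, against 0.0531 to 0.0678% and 32.42 to 34.56 M for Col in the first set. Root markers also moved with the set: the summed level of PYK10, PIN2, COBL9 and TIP2;3 was 32910 to 85782 in the libraries of the first set, all genotypes together, against 14300.5 to 22632 in those of the second. PYK10 made up most of this sum, with 42529 to 53852 in Col of the first set, against 348 to 397 for PIN2. PIN2 went the other way in 2OX, with 298.4 to 391.8 in the first set, against 398.8 to 513.5 in the second. In 6OX and sextuple the 2 sets overlapped for PIN2. COBL9, a root hair gene, was at 0 in 1 Col library of the second set. Leaf markers were low in 2OX and 4OX: the summed level of RBCS1A, RCA and CAB1 in the first set was 152841 to 179052 in 2OX and 67324.6 to 198412 in 4OX, against 327692 to 350148 in Col. In the second set it was 153329 to 194608 in 2OX and 194551 to 257864 in 4OX, against 302608 to 563827 in Col. The overexpressed genes fit their labels. In the line tables MCU2 had 6883, 5784 and 7818 normalized counts in 2OX, against 440.2, 393.7 and 333.0 in Col. MCU4 had 5187, 4850 and 5060 in 4OX, against 5.05, 3.74 and 0.946 in Col, and MCU6 had 686.9, 1146 and 1035 in 6OX, against 347.8, 329.9 and 215.1 in Col. In sextuple MCU1 and MCU6 were called lower than in Col (log2 fold changes -1.32 and -1.63, adjusted p = 0.0379 and 0.0235 by limma), while MCU2 (0.13, adjusted p = 0.62) and MCU3 (0.31, adjusted p = 0.148) were not.

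Levels differed widely between the 10 genes. Normalized counts are reads divided by a size factor for each library; set on 1 scale over the 30 libraries and divided by the kilobases of exon of each gene, CAX1 was the most abundant member in Col of the first set, with 5072 ± 581 per kb (SD, n = 3). ACA10 (1947 ± 31.7) and ACA4 (1900 ± 51.7) followed, and their libraries overlapped. CAX3 (1117 ± 213) overlapped ACA11 (884.6 ± 92.95), and ACA1 (661.2 ± 56.97) overlapped ACA8 (623.9 ± 9.77). CAX2 (484.3 ± 50.2) and ACA2 (382.8 ± 65.7) were lower, with no overlap between them, and CAX4 was far below all others at 27.6 ± 2.43 per kb. Over all 30 libraries the highest level of CAX4 was 11.3 times its lowest, that of ACA10 4.19 times and that of CAX2 1.86 times. In whole seedlings, fewer cells that express a gene and less RNA per cell cannot be told apart.

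**Figure D1:**
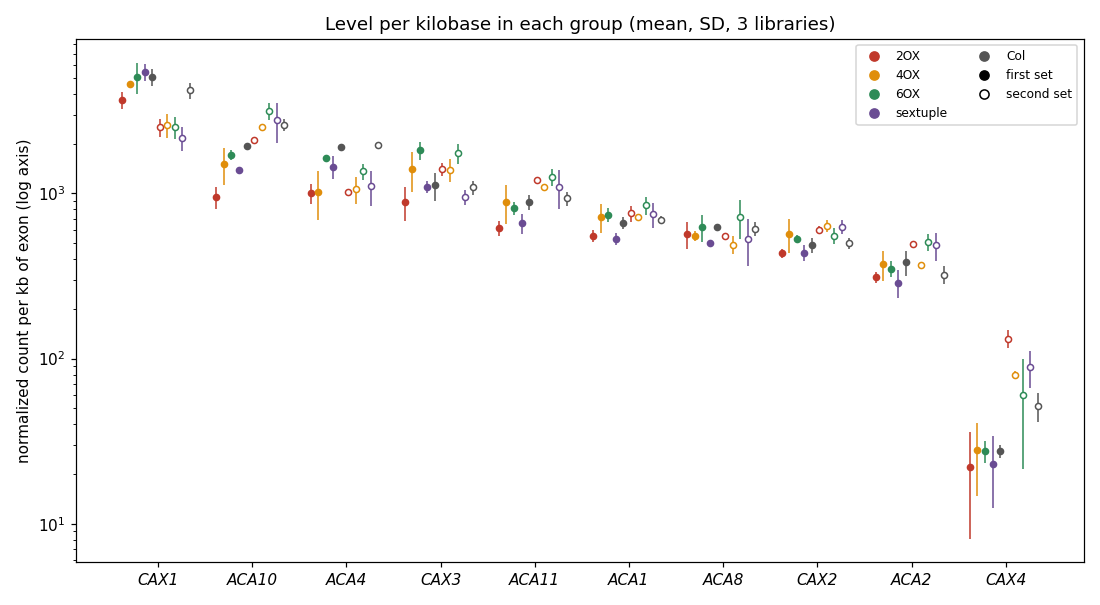
Level of each member in normalized counts per kb of exon (log axis), as mean and SD of 3 libraries for 2OX, 4OX, 6OX, sextuple and Col, filled for the first set and open for the second. CAX1 is the most abundant in Col at 5072 per kb and CAX4 the least at 27.6 per kb.

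A member was called changed by limma on log2(normalized count + 1) when it differed by more than 1.5-fold with a Benjamini-Hochberg adjusted p below 0.05, adjusted over all genes of a table. In 2OX, 2 of 10 members were called, both lower, where 6.7% of all genes tested were called. In 4OX it was 1 of 10, lower, against 5.53% of all genes, and in 6OX and in sextuple 0 of 10, against 0.199% and 1.53%. Without the adjustment, 1 member in 6OX and 6 in sextuple had a p under 0.05, where 3575 of 23170 and 5004 of 23164 genes did. By edgeR 0 were called in either line, and DESeq2 called 1 in 6OX and 0 in sextuple. The percentages above are those of limma, and the shares of all genes called by edgeR and DESeq2 are not given here. The 4 lines share their Col libraries, so their values are not independent of each other. The median log2 fold change of the 10 members was -0.40 for 2OX and -0.05 for 4OX, and for 6OX and sextuple it was -0.0022 and -0.32. Over all genes of a table the medians lay between -0.04 and 0.00.

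ACA4, the vacuolar pump (chr2:17332050-17337492 in TAIR10.1, minus strand), was lower in 2OX, at 3876, 3843 and 4919 normalized counts, against 7714, 7901 and 8209 in Col. The highest 2OX library lay well below the lowest Col library, and 33.65% of all genes had no overlap in 2OX. Leaf markers were lower too (2 of 3 called, median -0.75, their part not tested). The log2 fold change of ACA4 was -0.92 (SE 0.12, adjusted p = 0.00337 by limma). In 4OX, ACA4 had 8246, 4388 and 8437, against 12571, 12873 and 13404 in Col, each table having its own scale. Replicate 2 of 4OX was the lowest, leaf markers were low in the same 4OX group (0 of 3 called, median -0.87), and the log2 fold change was -0.94 (SE 0.24, adjusted p = 0.0476). This call in 4OX was not kept without 4OX replicate 1 or 3, nor without any 1 of the 3 Col libraries (log2 fold changes -1.11 to -0.92, adjusted p = 0.0616 to 0.156), and edgeR did not make it. In sextuple, ACA4 had 9708, 11391 and 8142, against 12319, 12638 and 13104 in Col. In 6OX it had 10558, 10766 and 10783, against 12020, 12239 and 12707 in Col. Neither passed the test (log2 fold changes -0.39 and -0.20, adjusted p = 0.115 and 0.463). The libraries did not overlap in either line, and neither did those of 27.14% of all genes in sextuple and 21.53% in 6OX.

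ACA10, the plasma membrane pump (chr4:14610883-14619685, minus strand), was lower in 2OX, at 3150, 3133 and 4037 normalized counts, against 7097, 6990 and 6925 in Col. The groups stood far apart, and those of 33.65% of all genes in 2OX did not overlap either. The log2 fold change was -1.04 (SE 0.12, adjusted p = 0.00216 by limma). Leaf markers were lower in the same 2OX libraries (2 of 3 called), which include the shallow replicate 1, and the part of either was not tested. In sextuple, ACA10 had 7906, 8201 and 7930, against 11333, 11181 and 11054 in Col, a log2 fold change of -0.48 (adjusted p = 0.0306) that stayed short of the 1.5-fold limit. In 4OX, ACA10 had 7421, 11543 and 7753, against 11565, 11388 and 11306 in Col. Replicate 2 of 4OX lay within the range of Col, and without it ACA10 was called (log2 fold change -0.59, adjusted p = 0.00321, against -0.39 and 0.17 with it). In 6OX, ACA10 differed from Col by -0.18 on the log2 scale (95% interval -0.46 to 0.10). The TAIR10.1 annotation places 2 long non-coding RNA genes and part of AT4G29890 on the other strand over ACA10, and how the reads were counted by strand is not given in the sources used here, so part of the ACA10 reads may belong to those genes.

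Of the other pumps, ACA11, the second vacuolar one, had 2321, 2142 and 2620 normalized counts in 2OX, against 3598, 3540 and 2985 in Col. The groups did not overlap, nor did those of 33.65% of all genes in 2OX. The log2 fold change of -0.51 (adjusted p = 0.0259) stayed short of 1.5-fold, and ACA11 was called without 2OX replicate 3 or Col replicate 3 (-0.59 and -0.60, adjusted p = 0.0101 and 0.0378). In sextuple ACA11 differed from Col by -0.42 (adjusted p = 0.082) and ACA8, the second plasma membrane pump, by -0.30 (adjusted p = 0.0716). The pumps of the endoplasmic reticulum, ACA1 and ACA2, passed the test in none of the 4 lines, with log2 fold changes of -0.31 to 0.18 for ACA1 and -0.41 to -0.03 for ACA2. Pairs of close relatives (ACA1 and ACA2, ACA4 and ACA11, ACA8 and ACA10, CAX1 and CAX3) may share reads, and how such reads were counted is not given in the sources used here.

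No exchanger passed the test in any line of the first set. CAX3 in 6OX had 4394, 5494 and 4541 normalized counts, against 2285, 3282 and 3174 in Col. All 6OX libraries were above all Col libraries, where 21.53% of all genes had no overlap in either direction. The log2 fold change was 0.73 (SE 0.16, adjusted p = 0.103 by limma), and DESeq2 called CAX3 (0.72, adjusted p = 0.00435). CAX1 had 8833, 9014 and 7264 in 2OX, against 10411, 11071 and 13056 in Col. These groups did not overlap either (nor did those of 33.65% of all genes in 2OX), and the log2 fold change was -0.46 (95% interval -0.76 to -0.16, adjusted p = 0.0596). CAX2 lay within -0.14 to 0.22 of Col in the 4 lines. CAX4 had 23.7, 20.1 and 59.5 in 2OX, against 42.8, 46.5 and 39.4 in Col. Its 95% interval in 2OX ran from -1.52 to 0.58 on the log2 scale, and a 2-fold drop of CAX4 lies within that interval.

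**Figure D2:**
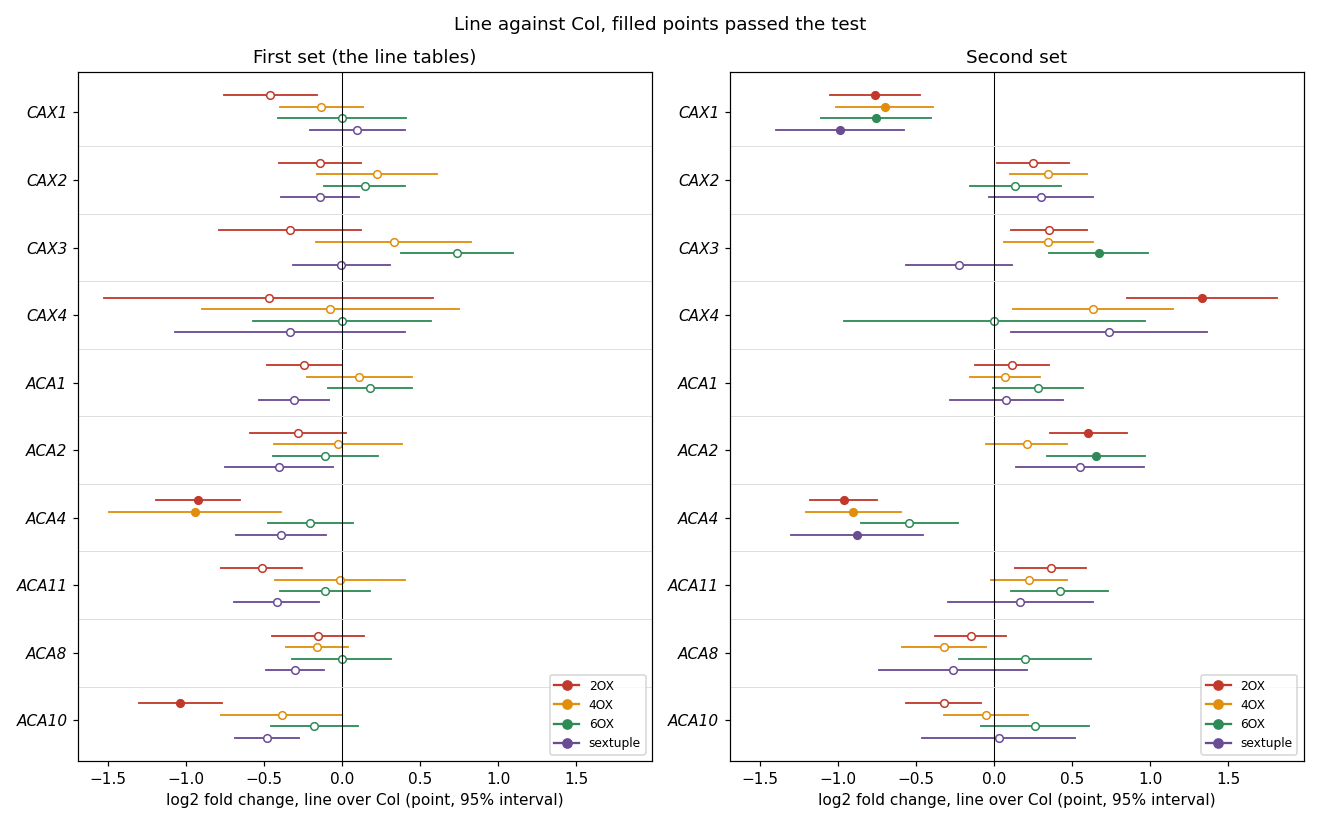
Log2 fold change of each line over Col for the 10 members, with 95% intervals, in the first set (left) and the second set (right). Filled points passed limma's adjusted p under 0.05 and the 1.5-fold limit; ACA4 lies below 0 in all 4 lines of both sets.

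The same lines were compared with Col in the second set, where 4 of 10 members were called in 2OX (15.6% of all genes), 2 in 4OX (8.96%), 3 in 6OX (1.85%) and 2 in sextuple (1.91%). Leaf markers moved with these comparisons: 3 of 3 were called lower in 2OX (median log2 fold change -1.20) and 2 of 3 in 4OX (-0.88), and 0 of 3 in 6OX and sextuple (-0.30 and -0.75). The alternative oxidase genes AOX1A and AOX1D were both called higher in 2OX (0.79 and 1.25). The part of either in the members' differences was not tested. ACA4 was again lower. On the scale of the 30 libraries it had 4963, 5350 and 4891 normalized counts in 2OX of the second set, 4249, 5348 and 6269 in 4OX, 6261, 6398 and 7637 in 6OX and 7038, 4683 and 4786 in sextuple, against 9911, 9827 and 9498 in Col. The log2 fold changes were -0.96 in 2OX (adjusted p = 0.000141), -0.90 in 4OX (adjusted p = 0.00133), -0.54 in 6OX (adjusted p = 0.0843, not called) and -0.88 in sextuple (adjusted p = 0.0484). The call in sextuple was lost without sextuple replicate 2 or any 1 of the Col libraries (-0.89 to -0.78, adjusted p = 0.14 to 0.279) and by edgeR.

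For ACA4, all 12 line libraries lay below all 3 Col libraries in the first set and again in the second. On the scale of the 30 libraries the line libraries reached at most 8434 in the first set and 7637 in the second, against at least 9228 and 9498 in Col. Over all genes on that scale, 2.23% had all 12 line libraries below Col in the first set, 2.12% in the second and 0.12% in both; this count was chosen after the values of ACA4 were seen. The lines that overexpress a uniporter gene and sextuple, where MCU1 and MCU6 were called lower, thus lay on the same side of Col for ACA4. In 6OX the ACA4 difference was called in neither set, and in sextuple in the second set alone. The 3 Col libraries of the second set held 1.47 to 6.24% of ribosomal RNA, and the part of that in the ACA4 difference was not tested.

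**Figure D3:**
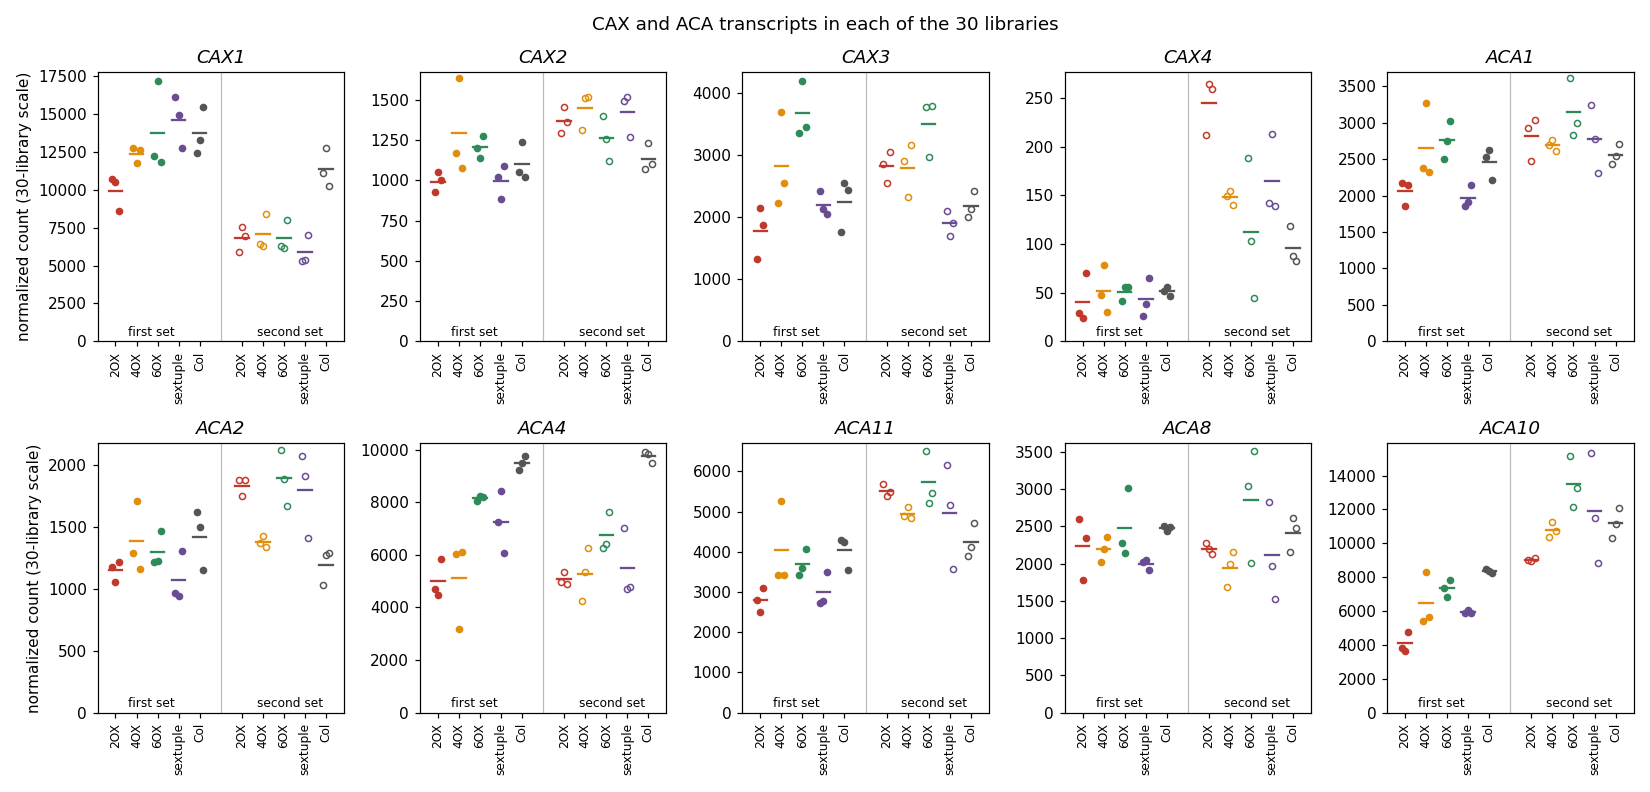
Normalized counts of the 10 members in each of 30 libraries on 1 scale (linear axes from 0), filled points for the first set (left) and open points for the second (right), with bars at the means of 3 libraries. For ACA4 all 12 line libraries lie below Col in both sets; for CAX1 they do so only in the second set.

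CAX1 (chr2:15989083-15993326, minus strand), by contrast, was lower than Col in every line of the second set only. It had 5883, 7563 and 6965 normalized counts in 2OX, 6421, 6320 and 8423 in 4OX, 6316, 6135 and 7982 in 6OX and 5291, 5351 and 7020 in sextuple, against 11142, 12767 and 10275 in Col. No line library reached the Col range, and 2.12% of all genes had all 12 line libraries below Col in this set. The log2 fold changes were -0.76 in 2OX (adjusted p = 0.00227), -0.70 in 4OX (0.00681), -0.76 in 6OX (0.0379) and -0.98 in sextuple (0.0307), all adjusted p-values by limma. The calls in 6OX and sextuple were not kept without any 1 of the Col libraries, nor without 6OX replicate 1 or 2 or sextuple replicate 2 (log2 fold changes -0.82 to -0.67 in 6OX and -1.05 to -0.90 in sextuple, adjusted p = 0.0512 to 0.203), and that in 4OX not without 4OX replicate 1 (-0.64, adjusted p = 0.0547). These 4 comparisons share the 3 Col libraries with 1.47 to 6.24% of ribosomal RNA, and the part of that ribosomal RNA in the difference was not tested.

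CAX4 (chr5:195452-198651, plus strand) was higher in 2OX of the second set, at 211.5, 264.7 and 259.6 normalized counts, against 118.1, 87.2 and 82.6 in Col, a log2 fold change of 1.33 (SE 0.22, adjusted p = 0.00178). The groups were well apart (40.01% of all genes had no overlap), and the call held under all 17 alternatives. Root markers were higher as well in 2OX of the second set (4 of 4 above 0, 1 called, median log2 fold change 0.75), and their part in the CAX4 difference was not tested. ACA2 was higher in 2OX (0.61, adjusted p = 0.00349 by limma) and in 6OX (0.65, adjusted p = 0.0458) of the second set. It was not called in 4OX (0.21, adjusted p = 0.277) or in sextuple (0.55, adjusted p = 0.174). The ACA2 call in 2OX fell short of 1.5-fold without Col replicate 1 (0.50, adjusted p = 0.00446), and the one in 6OX was lost without any 1 of its 6 libraries (0.54 to 0.73, adjusted p = 0.0517 to 0.185). CAX3 was higher in 6OX here as well, with 3777, 2959 and 3781, against 2001, 2129 and 2415 in Col, a log2 fold change of 0.67 (adjusted p = 0.0398). That call was lost without 6OX replicate 1 or 3 or Col replicate 1 or 2 (0.60 to 0.66, adjusted p = 0.107 to 0.18). ACA10 passed the test in no line of the second set, with log2 fold changes of -0.32 in 2OX to 0.26 in 6OX. Left out 1 at a time, Col replicate 1 brought a call of CAX4 in 4OX (0.79, adjusted p = 0.0417) and sextuple replicate 3 one of ACA2 in sextuple (0.72, adjusted p = 0.0244).

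The comparison of AA with CK asked which members respond to the inhibitor, here by the AA-table headings. Of the 10 members, 5 were called in 2OX (25.1% of all genes), 3 in 4OX (25.7%), 3 in 6OX (26.3%), 5 in sextuple (26%) and 1 in Col (18.2%). In 4OX, 6OX and Col these counts lie near the share of all genes. Of the 17 calls, 14 were lower and 3, all of CAX1, higher in the columns headed AA. The members' median log2 fold change ran from -0.58 in 2OX to -0.02 in Col, against -0.04 to 0.02 over all genes. Root markers moved with these calls: COBL9, TIP2;3 and PYK10 were called higher in the columns headed AA in all 5 genotypes and PIN2 in Col, and their part in the members' differences was not tested. PIN2 was called in no line, and in 2OX it was lower in the columns headed AA. Of all genes, 42.07% in Col to 49.11% in 4OX had no overlap between the columns headed AA and CK. These comparisons use the same libraries as those of a line with Col above, so their results are not independent of those.

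CAX4 fell furthest in the columns headed AA. In 2OX it had 21.2, 17.4 and 52.6 normalized counts in the columns headed AA, against 158.7, 197.4 and 194.2 in those headed CK. In sextuple it had 29.5, 43.6 and 73.1, against 161.0, 243.0 and 157.4, and in 4OX 61.3, 100.1 and 38.2, against 193.7, 199.6 and 180.9. No library headed AA reached the CK range in these 3 lines, and the log2 fold changes were -2.71 in 2OX (adjusted p = 0.000762), -1.98 in sextuple (0.00327) and -1.62 in 4OX (0.00607), by limma. In Col, CAX4 had 46.8, 50.4 and 42.4, against 104.9, 77.8 and 74.5, a log2 fold change of -0.86 (adjusted p = 0.0424). That call was lost without any 1 library other than Col replicate 3 headed CK (-0.92 to -0.70, adjusted p = 0.066 to 0.137) and under scaling by library totals. In 6OX replicate 3 headed CK had 45.7, against 191.0 and 105.5 in the other two, and limma called CAX4 without it (-1.44, adjusted p = 0.0203) but not with it (-0.90, adjusted p = 0.175). DESeq2 called CAX4 in 6OX with all libraries (-1.14, adjusted p = 0.042). CAX4 reads per library were few and these folds have wide intervals, and the part of the few reads in that width was not tested.

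ACA10 was lower in the columns headed AA in all 4 lines. It had 2814, 2719 and 3567 normalized counts in 2OX headed AA, against 6776, 6672 and 6817 headed CK, a log2 fold change of -1.17 (SE 0.13, adjusted p = 9.88e-05). In sextuple it had 6686, 6920 and 6674, against 17386, 13066 and 9991, and in 6OX 7490, 6970 and 7962, against 15391, 12468 and 13565. The columns headed CK were higher in every library, although those of sextuple were spread widely. The log2 fold changes were -0.96 in sextuple, -0.88 in 6OX and -0.78 in 4OX (adjusted p = 0.00993, 0.00342 and 0.008), and those of sextuple and 4OX were not called under scaling by library totals. In Col, ACA10 had 7763, 7575 and 7450, against 9148, 9919 and 10914, a smaller log2 fold change of -0.39 (adjusted p = 0.0294) that did not reach 1.5-fold.

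ACA11 had the same sign in every genotype, and was called lower in the columns headed AA of 2OX, 6OX and sextuple (log2 fold changes -0.99, -0.63 and -0.70, adjusted p = 0.000127, 0.0108 and 0.0386). In 2OX the libraries were 2074, 1859 and 2315, against 4265, 4012 and 4103 headed CK. The groups were far apart in 2OX, whereas in Col, at 3935, 3836 and 3211, against 3462, 3681 and 4249, they overlapped (-0.05, 95% interval -0.32 to 0.21). The ACA11 call in 6OX was not kept without 6OX replicate 1 headed AA or headed CK (-0.58 and -0.54, adjusted p = 0.0607 and 0.0462, the second short of 1.5-fold), nor that in sextuple without replicate 1 or 2 of either heading (-0.65 to -0.52, adjusted p = 0.0924 to 0.14). ACA2 was called lower in 2OX, at 867.5, 785.5 and 906.0, against 1408, 1300 and 1400 (-0.68, adjusted p = 0.000886). In sextuple ACA2 was called as well (-0.75, adjusted p = 0.0191), but not without sextuple replicate 1 or 2 headed AA or replicate 2 headed CK (-0.69 to -0.66, adjusted p = 0.0768 to 0.0882). CAX3 was called lower in 2OX alone (-0.70, adjusted p = 0.011), and without the shallow 2OX replicate 1 it fell short of 1.5-fold (-0.49, adjusted p = 0.00993). None of these calls of ACA2, ACA11 and CAX3 was kept under scaling by library totals, except that of ACA11 in 2OX.

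CAX1 was the member that rose in the columns headed AA. In sextuple it had 18292, 17055 and 14410 normalized counts headed AA, against 6000, 6093 and 7946 headed CK, the largest difference, with a log2 fold change of 1.32 (SE 0.19, adjusted p = 0.00112). In 6OX it had 12475, 17638 and 12004, against 6417, 6290 and 8170, and in 4OX 16362, 15140 and 16222, against 8316, 8173 and 10889. The groups did not overlap, and the log2 fold changes were 1.00 and 0.81 (adjusted p = 0.00507 and 0.00257). In 2OX CAX1 had 7892, 7821 and 6418, against 4416, 5639 and 5210, a log2 fold change of 0.54 (adjusted p = 0.0139) short of 1.5-fold; it was called without 2OX replicate 3 headed AA or replicate 2 headed CK (0.63 and 0.61). In Col it had 11389, 11998 and 14047, against 9892, 11393 and 9274, and did not pass (0.29, adjusted p = 0.147). CAX1 in 2OX was also called under scaling by library totals (0.74, adjusted p = 0.00256). Limma called CAX2, ACA1, ACA4 and ACA8 in no genotype with all libraries and the deposited scaling. Under scaling by library totals ACA4 was called higher in sextuple (0.70, adjusted p = 0.0316, against 0.41 and 0.187 with the deposited scaling). Without sextuple replicate 3 headed CK, CAX2 and ACA1 were called lower in sextuple (-0.60 and -0.61), and without replicate 1 headed CK, ACA4 was called higher (0.60, adjusted p = 0.0455). ACA2 was called lower in 6OX without replicate 3 of either heading (-0.63). With the deposited scaling the log2 fold changes were -0.19 to 0.17 for ACA8 and -0.11 to 0.41 for ACA4.

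**Figure D4:**
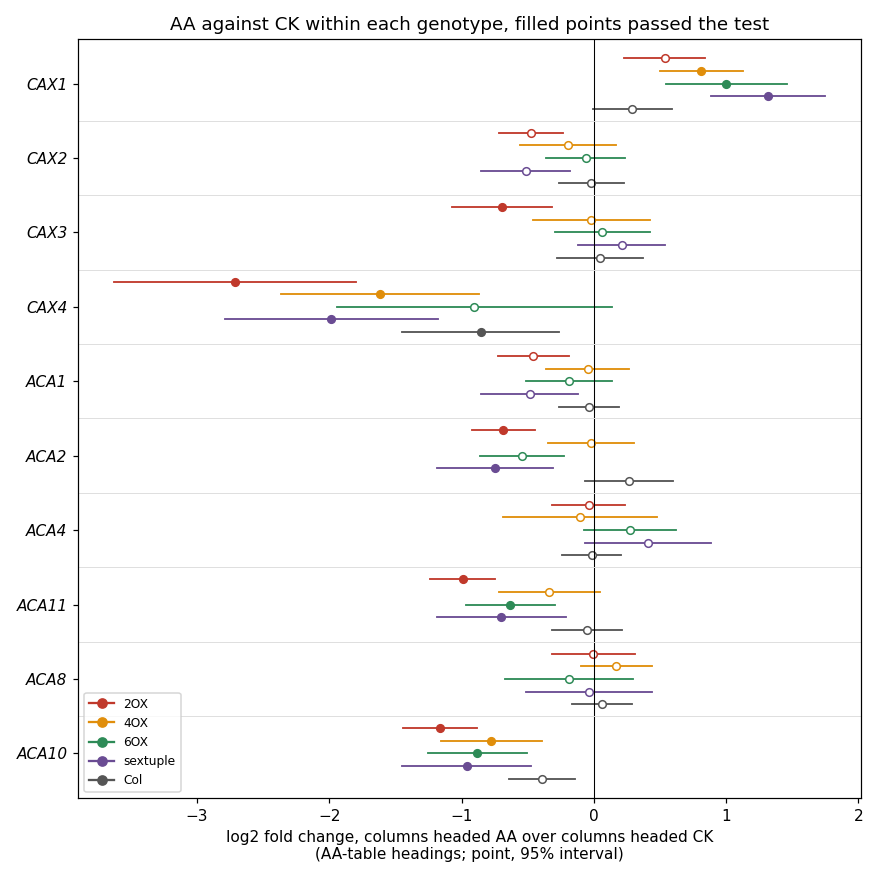
Log2 fold change of the columns headed AA over those headed CK, as the AA tables head them, in each genotype, with 95% intervals and filled points where the test was passed. CAX1 lies above 0 and CAX4 and ACA10 below 0 in all 5 genotypes; read by the line tables, the sign turns round.

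Whether the AA difference of a line departed from that of Col was tested by an interaction term, at an adjusted p under 0.05. For 2OX, 3 of 10 members passed, against 5.38% of all genes: ACA11 (-0.90, SE 0.16, adjusted p = 0.00822), ACA2 (-0.91, SE 0.19, adjusted p = 0.0136) and ACA10 (-0.74, SE 0.16, adjusted p = 0.0185), each more negative in 2OX than in Col. CAX4 had the largest value, -1.83, and did not pass (adjusted p = 0.051), though DESeq2 called it (-1.50, adjusted p = 0.0247). All 3 were lost without replicate 1 of every group (-0.77 to -0.62, adjusted p = 0.0697 to 0.144), which removes the shallow library, and without replicate 2 (-0.89 to -0.67, adjusted p = 0.339 to 0.463). For 4OX, 6OX and sextuple, 0 of 10 members passed, against 0.426%, 0.0044% and 0.814% of all genes. Without the adjustment 1, 4 and 7 members had a p under 0.05, where 2938 of 22785, 3068 of 22713 and 3519 of 22716 genes did. By edgeR 0, 0 and 1 were called, and by DESeq2 0, 1 and 2, and the shares of all genes that these tools called are not given here. For sextuple CAX1 came closest (1.03, adjusted p = 0.0583, called by edgeR and DESeq2). Without replicate 3 of sextuple and Col 6 members passed (adjusted p = 0.000828 to 0.0416). The share of all genes in that fit is not given here, and the 0.814% is that of the fit with all libraries. For ACA4 the interaction was -0.06 to 0.44 over the 4 lines (adjusted p = 0.413 to 0.964).

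Other calcium transporters, taken from a list made with earlier results known, showed where the members stood among their kin. Of 16 further efflux genes, 15 were tested in the first set. In 2OX 1 was called lower, the pump gene ACA12 (-0.82, adjusted p = 0.0338), against 6.7% of all genes called. In 4OX 1 was called lower, AT5G17860, a cation exchanger gene also named CCX1 (-0.59, adjusted p = 0.0401), against 5.53%. These counts lie near the share of all genes. In 6OX and sextuple limma called 0, with 3 and 4 at an unadjusted p under 0.05, where 3575 of 23170 and 5004 of 23164 genes were. By the AA-table headings, 8 of 14 tested were called in 2OX, 6 of 14 in 4OX, 7 of 14 in 6OX, 9 of 14 in sextuple and 5 of 15 in Col, where over all genes 25.1%, 25.7%, 26.3%, 26% and 18.2% were called in the same order of genotypes. ACA12 was lower in the columns headed AA in all 5 genotypes (-1.97 in 2OX to -0.61 in Col), and ACA9, a pump gene known from pollen, was higher in all 5 (2.61 in sextuple to 4.17 in 4OX). CCX1 and its neighbour AT5G17850 were lower in all 5, with -1.54 and -1.64 in sextuple.

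Of 17 channel genes, limma called 0 in any line of the first set, with 2 to 5 at an unadjusted p under 0.05. In the second set 4 were called higher and 1 lower than Col in 2OX (15.6% of all genes were called) and 1 higher and 1 lower in 4OX (8.96%). In 6OX 2 were called higher (1.85%) and in sextuple 1 lower (1.91%). All these calls were of cyclic-nucleotide-gated channel genes. The lower one was CNGC2 each time (-0.89 in 2OX, -0.87 in 4OX and -0.84 in sextuple). CNGC12 was higher in 2OX, 4OX and 6OX (0.76, 0.80 and 0.81), and CNGC19 had the largest difference in 2OX (1.42, adjusted p = 0.0146). Of 14 further efflux genes tested in the second set, 3 were called higher in 2OX, against 15.6% of all genes called. They were AT3G14070 (1.26, adjusted p = 0.0192), ECA2 (1.13, adjusted p = 0.000491) and ACA13 (0.72, adjusted p = 0.0193). In 6OX 1 was called higher, ACA13 (1.03, adjusted p = 0.0431), against 1.85%. The vacuolar proton pyrophosphatase AVP1, which supplies the gradient that CAX proteins use, was lower in 2OX (-0.95, adjusted p = 0.000336) and 4OX (-0.65, adjusted p = 0.00401) of the second set. In the first set limma called 0 of 4 proton pump genes. At an unadjusted p under 0.05 there were 0 to 3, the 3 in 4OX, where 6739 of 23295 genes were. Of the regulator list (calmodulins, kinases and CAX-interacting proteins), limma called 0 in any line of either set. At an unadjusted p under 0.05 there were 0 to 6, the 6 of 12 tested in sextuple of the first set, where 5004 of 23164 genes were. Between AA and CK, the calmodulin gene CAM7 (0.64, adjusted p = 0.0029) and CXIP1 (0.62, adjusted p = 0.019) were higher in the columns headed AA of 2OX.

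CAX1 was the member called most often, in 7 of 17 comparisons. Of these, 3 were of AA against CK and 4 of lines with Col in the second set, and both kinds use the libraries of the second set. The 3 genes whose levels followed CAX1 most closely over the 30 libraries were AGP17 (r = 0.93, rho = 0.91), EXL5 (r = 0.93, rho = 0.91) and LYK3 (r = 0.93, rho = 0.89), of 22460 genes compared. The libraries share their set and genotype, so these values only describe them. Among the members, ACA1 and ACA11 had the highest r (0.90) and CAX1 and CAX4 the lowest (-0.77).

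The 250 bases upstream of each gene start in TAIR10.1 were searched on both strands for CACGTG (the G-box), CGCGTT (a form of the site bound by calmodulin-binding CAMTA factors) and the mitochondrial dysfunction motif found in genes such as AOX1A. Of the 10 members, 1 held CGCGTT and 0 held the others, and over 27443 protein-coding genes the shares were 2.59% for CGCGTT, 6.49% for the G-box and 1.2% for the mitochondrial dysfunction motif. The match is shown because it is the only one, and it lies on the other strand of the ACA2 promoter, chr4:17687230-17687285, on the minus strand, with the motif in capitals.
ACA2: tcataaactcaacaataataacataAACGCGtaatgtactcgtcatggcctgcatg
This match is a description of the sequence, 155 bases from the gene start. The finding of no match says only that these letters are not in the windows searched.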

How the data were processed

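Reads were mapped by the authors to TAIR10; the processing notes name Bowtie 0.12.2. The methods name Cufflinks for RPKM, but the deposited values are a signal per gene, read counts divided by size factors: set against the step that a single read adds, 1266084 of 1266084 values came out whole (100%, within 0.05 read). How reads were counted is not given in the sources used here. Columns of the authors' comparisons (a mean, a log2 fold change and its error, a score, a p-value and its adjusted form, as deposited) were not used; 0 columns lacked a sample.

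The planned edgeR test needs counts, so limma 3.58.1 (R 4.3.3, with a mean-variance trend) was run on log2(value + 1), a scale that understates changes of low genes, for genes with a mean of at least 1. Calls needed an adjusted p under 0.05 and, except for interactions, a fold over 1.5. The second set and the interactions used recovered reads with 1 set of median-of-ratios factors. edgeR 4.0.16 and DESeq2 1.42.0 on recovered reads were alternatives, beside pseudocount 8, filters, scalings, stricter thresholds, a replicate block, 1 fit over 30 libraries and leaving out libraries.

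Members and lists were chosen with earlier results of these data known. The rule for named genes was all 10 members in every comparison, up to 3 called genes with the largest change in each other list, the marker and uniporter genes, and the 3 genes most correlated with the member called most often. Gene names and positions are from the RefSeq TAIR10.1 annotation and its synonyms, MCU names from the study. CAX6 is in 0 tables. A further MCU gene is left out.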

Additional observations from a re-analysis of the deposited data

Results flagged for a closer look

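In 3 cases the AA difference of a line departed from that of Col by the interaction test. All 3 were in 2OX: ACA2 (-0.91 on the log2 scale), ACA11 (-0.90) and ACA10 (-0.74), each as the AA tables head their columns. ACA10 was lower in the columns headed AA in both genotypes (-1.17 in 2OX and -0.39 in Col), ACA11 in 2OX (-0.99, against -0.05 in Col) and ACA2 in 2OX (-0.68, against 0.26 in Col, where it did not pass the test). The sign would turn round under the headings of the line tables. The shallow library, replicate 1 of 2OX headed AA with 2.56 M reads, and the Col libraries headed CK with 1.47 to 6.24% of ribosomal RNA enter these tests, and their part in them was not tested beyond leaving out libraries. No group held the 4 samples that a test for a single outlying library needs.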

How the results depend on the processing

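Over 170 tests of a member, 34 were called, and no call turned its direction under any alternative. The shares of all genes called under each alternative are not given here, so the counts below describe the members only. Calls numbered 35 with pseudocount 8, 29 with no filter on low values, 35 with a mean of at least 10, 28 with library totals, 34 with nuclear size factors, 32 with edgeR, 40 with DESeq2, 19 without the trend, 8 at an adjusted p under 0.01 and fold over 2, 26 with the replicate block and 35 in 1 fit over 30 libraries.

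Counts of called members that moved by over 1.5 times were as follows. For 2OX against Col (2 called) the count was 0 without the trend and 1 at the stricter threshold; for 4OX (1 called) it was 0 with library totals, edgeR, no trend and the stricter threshold; for 6OX (0 called) it was 1 with DESeq2 and in 1 fit over 30 libraries. For AA against CK in Col (1 called) it was 0 with library totals, the stricter threshold, the replicate block and 1 fit; in 2OX (5) it was 2, in 4OX (3) 1 and in 6OX (3) 1 at the stricter threshold; in sextuple (5) it was 3 with library totals, no trend and the replicate block and 2 at the stricter threshold. In the second set, 2OX (4) had 1 at the stricter threshold; 4OX (2) had 0 without the trend and at the stricter threshold; 6OX (3) and sextuple (2) had 0 with no filter, no trend, the stricter threshold and the replicate block, and sextuple had 1 with edgeR. For the interactions, 2OX (3) had 1 without the trend and 0 at the stricter threshold, 6OX (0) had 1 with DESeq2, and sextuple (0) had 1 with library totals and edgeR and 2 with DESeq2 and 1 fit. The causes were not tested.

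Leaving out 1 library at a time, called members against Col numbered 2 to 3 (2OX), 0 to 2 (4OX) and 0 to 0 (6OX and sextuple) in the first set, and 3 to 4 (2OX), 1 to 3 (4OX), 0 to 1 (6OX) and 0 to 3 (sextuple) in the second. For AA against CK they numbered 4 to 6 (2OX), 3 to 3 (4OX), 2 to 5 (6OX), 3 to 7 (sextuple) and 0 to 1 (Col), and for the interactions, leaving out a replicate number, 0 to 4 (2OX), 0 to 0 (4OX), 0 to 1 (6OX) and 0 to 6 (sextuple). The shares of all genes called in these fits are not given here.

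Replicate numbers pair no samples by the labels, and in no comparison were the correlations of all same-numbered libraries over 0.1, the limit set for pairing (lowest r from -0.441 to 0.0994; 2OX against Col came nearest, with 0.0994, 0.153 and 0.143). With the replicate block 26 members were called, all among the 34, and the 8 calls lost are not read as weaker effects.

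Scaling by library totals shifted the median of all genes by 0.19 to 0.29 (log2) for AA against CK, and by 0.10 and 0.11 for 4OX and 2OX of the second set; the share of calls that were higher then went to 62.5 to 76.8%, against 43.7 to 57.2%, for AA against CK. In the second set it went to 66.9% in 2OX and 64.5% in 4OX, against 53.0% and 44.8%, in 4OX of the first set to 69.2%, against 50.1%, and for the 2OX and 4OX interactions to 23.8% and 46.3%, against 37.2% and 58.8%. For 6OX against Col it went to 55.2%, against 69.6%.

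The 3 libraries a group limit what can be seen: CAX4, with few reads, and the interactions have the widest intervals. Protein sequence was not used here.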
